A study of Mus musculus with 26 samples.

Results

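The libraries described here came from cardiac stromal cells that were negative for SCA-1, a surface antigen whose gene is Ly6a, at 28 days after coronary artery ligation and in undamaged hearts. They were chosen by gate and time point as the labels give them, and make up 7 of the 26 libraries of the series. The day 28 group held 3 libraries, known by the codes E4, B4 and B6 in their names, and the undamaged group held 4, with the codes E5, F3, A6 and B7. All were of C57BL/6 background and carried the Pdgfra H2B-EGFP allele, in which a nuclear green fluorescent protein marks cells with an active Pdgfra gene, which encodes a receptor for platelet-derived growth factors. By their labels, the sorted cells were positive for this protein and free of CD45 (leukocytes) and CD31 (endothelium). Day 28 hearts had undergone a LAD (left anterior descending) artery ligation, which causes a myocardial infarct, while undamaged hearts had not, and no sham operation is named. Whether each library is a separate animal, or a pool, is not stated in the labels. A p-value here sets a change against the spread between libraries of a group. That spread was estimated over 20 libraries in 6 groups, which include SCA-1 positive cells and day 14, and it may be technical.

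Cardiac fibroblasts express Pdgfra and maintain the collagen network of the heart. After an infarct they proliferate, become activated cells that secrete fibronectin, periostin and fibrillar collagens, and then build a scar that replaces the lost muscle. In the mature scar, cells with a tendon- and cartilage-like matrix programme, including Comp and Cilp, are known as matrifibrocytes. The comparison asks which genes of the SCA-1 negative stromal fraction still differed from the undamaged heart once the scar was weeks old.

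Each day 28 library held 10737619 to 15601016 counts in genes, and each undamaged library 10883870 to 15217601. Reads outside genes were 7.18% to 7.97% of the day 28 libraries and 6.77% to 13.5% of the undamaged ones. The number of genes with a count was 14123 to 14597 at day 28, against 15150 and 14774 in undamaged E5 and F3 and 12325 and 12634 in undamaged A6 and B7. The names fall into 2 families, since B4, B6, A6 and B7 carry a number before the code (called prefixed below) and E4, E5 and F3 do not (letter-coded). Nothing in the labels says what the families stand for, and within the prefixed family the number also differs between day 28 and undamaged libraries, so that this number and the time point cannot be told apart. Pdgfra itself was at 499, 620.3 and 580.3 CPM (counts scaled to library size) in day 28 libraries E4, B4 and B6, against 708, 602, 585 and 437 CPM in undamaged libraries E5, F3, A6 and B7, with overlapping groups. Ly6a, the gene of the sorting marker, averaged 42.0 ± 15.6 CPM at day 28 and 53.4 ± 38.3 CPM in undamaged cells (SD, n = 3 and 4), and its log2 change of -0.35 was not called, with an adjusted p of 0.834. Within the prefixed libraries the log2 change of Ly6a was 1.27 (adjusted p 0.0108), and within the letter-coded libraries, with E4 as the 1 day 28 library, it was -1.73 (adjusted p 0.0296).

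Most of the genes called in day 28 cells were higher than in undamaged cells. Of 13812 genes tested with edgeR, 147 differed (1.06%): 113 were higher at day 28 (0.818%) and 34 were lower (0.246%) at a Benjamini-Hochberg adjusted p under 0.05, here termed called. The called genes had a median log2 change of 2.01 among the higher and -2.14 among the lower ones, and 96 of 113 and 32 of 34 changed more than 2-fold. In 110 of the 113 and 33 of the 34, the CPM of the 3 day 28 libraries did not overlap those of the 4 undamaged ones. Over all genes, 6.83% stood apart in this way upwards and 4.42% downwards. Day 28 library E4 was the highest of its group for 77 of the 113 genes, against 38.2% of all genes tested. Leaving out one library at a time gave 62 calls without E4, 64 without B6, 91 without F3 and 98 to 126 without one of the others. Of the 147 calls, 35 held in each of these 7 fits, and 17 of those also held in every other setting tried. Those 17 were Cthrc1, Ddah1, Nox4, Col8a2, Comp, Cpxm2, Mfap4, Mfap5, Sfrp1, Sfrp2, Tgfb3, Kcne4, Ephb2, Pamr1 and Tmem98 among the higher genes and Cytl1 and Unc13b among the lower ones. Some genes named here fall outside the rule given with the methods and were chosen after their values were seen: Nox4, Ephb2, Pamr1, Tmem98, Unc13b, Matn3, Grin3a, Coch, Corin, Sost, Il6, Actn1, Col2a1, Sparc, Tnc, Tnn, Mdk, Lhfpl2, Sox4, Nmb, Slc1a5, Sned1 and the genes of the DESeq2 test between gates. Hsp90aa1, Tnfaip3, Hk2 and Fosl1, named in the closing section, fall outside that rule too.

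**Figure D1:**
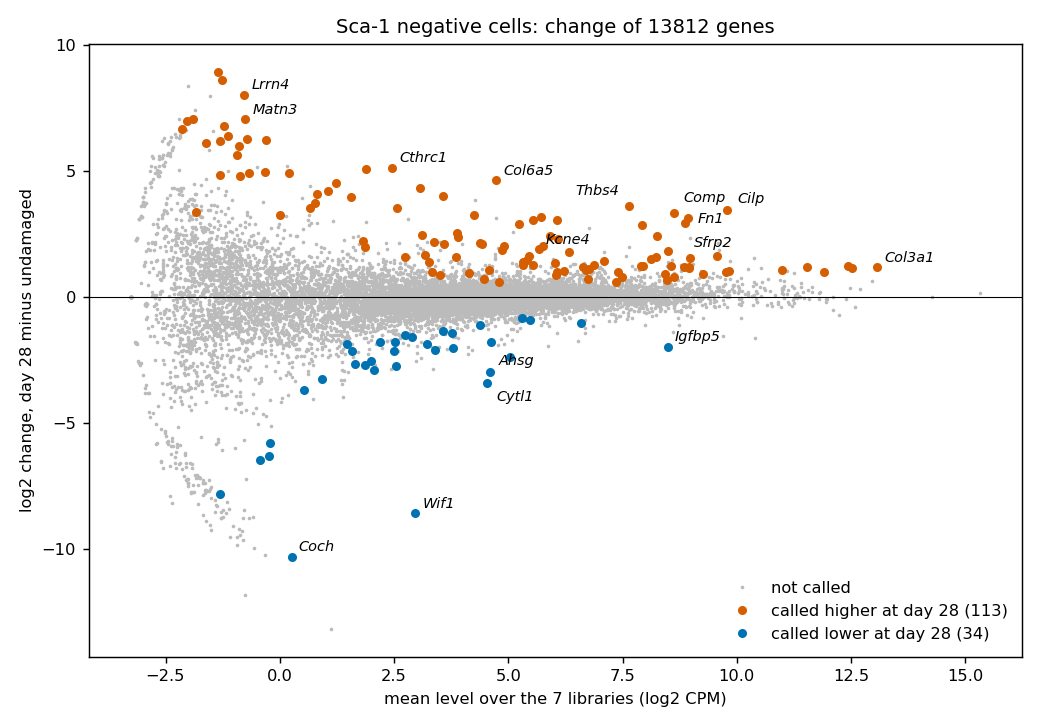
Log2 change of each of 13812 genes, day 28 minus undamaged SCA-1 negative cells (vertical axis), against its mean level over the 7 libraries in log2 CPM (horizontal axis). Orange points are the 113 genes called higher at day 28, blue points the 34 called lower, and grey points the rest; the called-higher genes run from under 1 CPM (Matn3, Lrrn4) to the abundant Col3a1, with Wif1 and Coch far below 0.

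Promoters of 4 of the called genes are shown to let the letters behind the motif counts be read. Cpxm2, Lrrn4 and Matn3 were chosen as the 3 called-higher genes of smallest p with a single listed promoter that holds the core GGAATG of TEAD factors (the DNA partners of YAP and TAZ), and Wif1 was the called-lower gene of smallest p. The sequences are the 250 bases before the annotated start in RefSeq, build GRCm38.p6, 5′ to 3′ on the gene's strand, with the TEAD core on either strand (GGAATG or CATTCC) in capitals. Cpxm2 lies on the minus strand at chr7:132154742-132154991, Lrrn4 on the minus strand at chr2:132880863-132881112, Matn3 on the plus strand at chr12:8947679-8947928 and Wif1 on the plus strand at chr10:121033754-121034003.
Cpxm2: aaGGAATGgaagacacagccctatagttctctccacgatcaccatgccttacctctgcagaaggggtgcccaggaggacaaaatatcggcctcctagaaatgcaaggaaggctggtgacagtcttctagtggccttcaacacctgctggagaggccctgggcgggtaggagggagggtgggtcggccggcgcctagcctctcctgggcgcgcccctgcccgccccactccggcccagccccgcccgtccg
Lrrn4: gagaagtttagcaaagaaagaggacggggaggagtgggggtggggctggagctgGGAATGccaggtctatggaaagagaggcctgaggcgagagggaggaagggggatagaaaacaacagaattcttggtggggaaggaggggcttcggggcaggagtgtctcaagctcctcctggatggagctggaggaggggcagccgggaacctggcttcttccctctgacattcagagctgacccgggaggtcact
Matn3: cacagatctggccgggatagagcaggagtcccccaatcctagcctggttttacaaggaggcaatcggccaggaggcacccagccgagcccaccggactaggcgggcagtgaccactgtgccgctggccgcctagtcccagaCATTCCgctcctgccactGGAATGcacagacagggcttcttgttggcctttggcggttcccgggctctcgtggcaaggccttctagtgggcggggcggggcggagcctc
Wif1: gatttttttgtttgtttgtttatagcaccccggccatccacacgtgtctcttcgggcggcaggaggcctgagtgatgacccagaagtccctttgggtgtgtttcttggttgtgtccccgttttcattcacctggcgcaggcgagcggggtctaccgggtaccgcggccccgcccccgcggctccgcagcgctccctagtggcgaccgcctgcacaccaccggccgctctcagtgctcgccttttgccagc
The windows of Cpxm2 and Lrrn4 held 1 core each, that of Matn3 held 2, and that of Wif1 held 0; the first 3 were chosen for holding a core, so this restates the choice. Promoters, from 250 bases before to 50 after the start, were listed for 78 of the 113 higher genes, 27 of the 34 lower genes and 10451 of the genes tested. A TEAD core on either strand was present in 24.4% of the higher, 18.5% of the lower and 14.7% of all promoters. The AP-1 site (TGAGTCA or TGACTCA) was present in 3.85%, 3.7% and 4.74% of the same sets, and the CRE (TGACGTCA, which contains neither) in 5.13%, 0% and 3.51%. The CArG core occurred in 0 promoters of called genes and in 1.62% of all, and the heat shock element in 0 and 0.622%. These are matches of letters only, described without a test.

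Activation genes were the first group. Cthrc1, a secreted protein made by activated fibroblasts (chromosome 15, 39076932 to 39087121, GRCm38), was at 77.2, 37.5 and 29.7 CPM in day 28 libraries E4, B4 and B6, against 1.66, 0.613, 0.413 and 2.58 CPM in undamaged libraries E5, F3, A6 and B7. Every day 28 library was above every undamaged one, and the log2 change was 5.13 ± 0.54 (SE, adjusted p 3.81e-05). Ddah1, the enzyme that degrades the nitric oxide synthase inhibitor dimethylarginine, was at 114, 29.8 and 42.0 CPM at day 28, against 4.22, 3.54, 4.88 and 2.80 CPM in undamaged cells. The groups did not overlap, with E4 far above the other 2 day 28 libraries, and the log2 change was 4.01 ± 0.50 (adjusted p 0.000359). Runx1, a transcription factor of injury-activated fibroblasts, was at 63.6, 53.5 and 91.2 CPM at day 28, against 8.64, 6.88, 5.38 and 8.30 CPM in undamaged cells, a log2 change of 3.25 ± 0.52 (adjusted p 0.00296) without overlap. Nox4, a hydrogen peroxide producing NADPH oxidase induced by TGF-beta, averaged 121 ± 24.3 CPM at day 28 and 30.2 ± 4.46 CPM in undamaged cells (SD, n = 3 and 4), a log2 change of 2.01.

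Of the 26 tested members of the activated fibroblast and myofibroblast list, 7 were higher (Cthrc1, Ddah1, Runx1, Cdh2, Actn1, Thbs4 and Ltbp2) and 0 lower. Over all genes tested, 0.818% were called higher and 0.246% lower, the shares to set beside this list and the later ones. The list had a median log2 change of 0.27, against -0.01 over all genes, and its medians within the name families were 0.17 in prefixed and 0.81 in letter-coded libraries. Postn, the matricellular protein periostin, was at 3560, 1037 and 1171 CPM at day 28, against 504, 435, 432 and 379 CPM in undamaged cells. These groups stood apart, with E4 far above B4 and B6, and the log2 change of 2.14 ± 0.54 was not called (adjusted p 0.0633). Acta2, smooth muscle actin, the marker of contractile myofibroblasts, was at 85.1, 45.4 and 43.4 CPM at day 28, against 51.2, 48.8, 69.4 and 34.6 CPM in undamaged cells. The groups overlapped, and the log2 change of 0.18 ± 0.36 (adjusted p 0.88) took the other sign without E4 (-0.20). Of the 7 called members, Cdh2 (N-cadherin), Actn1 (an actin cross-linker), Thbs4 and Ltbp2 lost their call without E4, with adjusted p values of 0.0806, 0.0894, 0.0994 and 0.0812, and Thbs4 and Ltbp2 also without F3 or B7, and Thbs4 without A6.

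**Figure D2:**
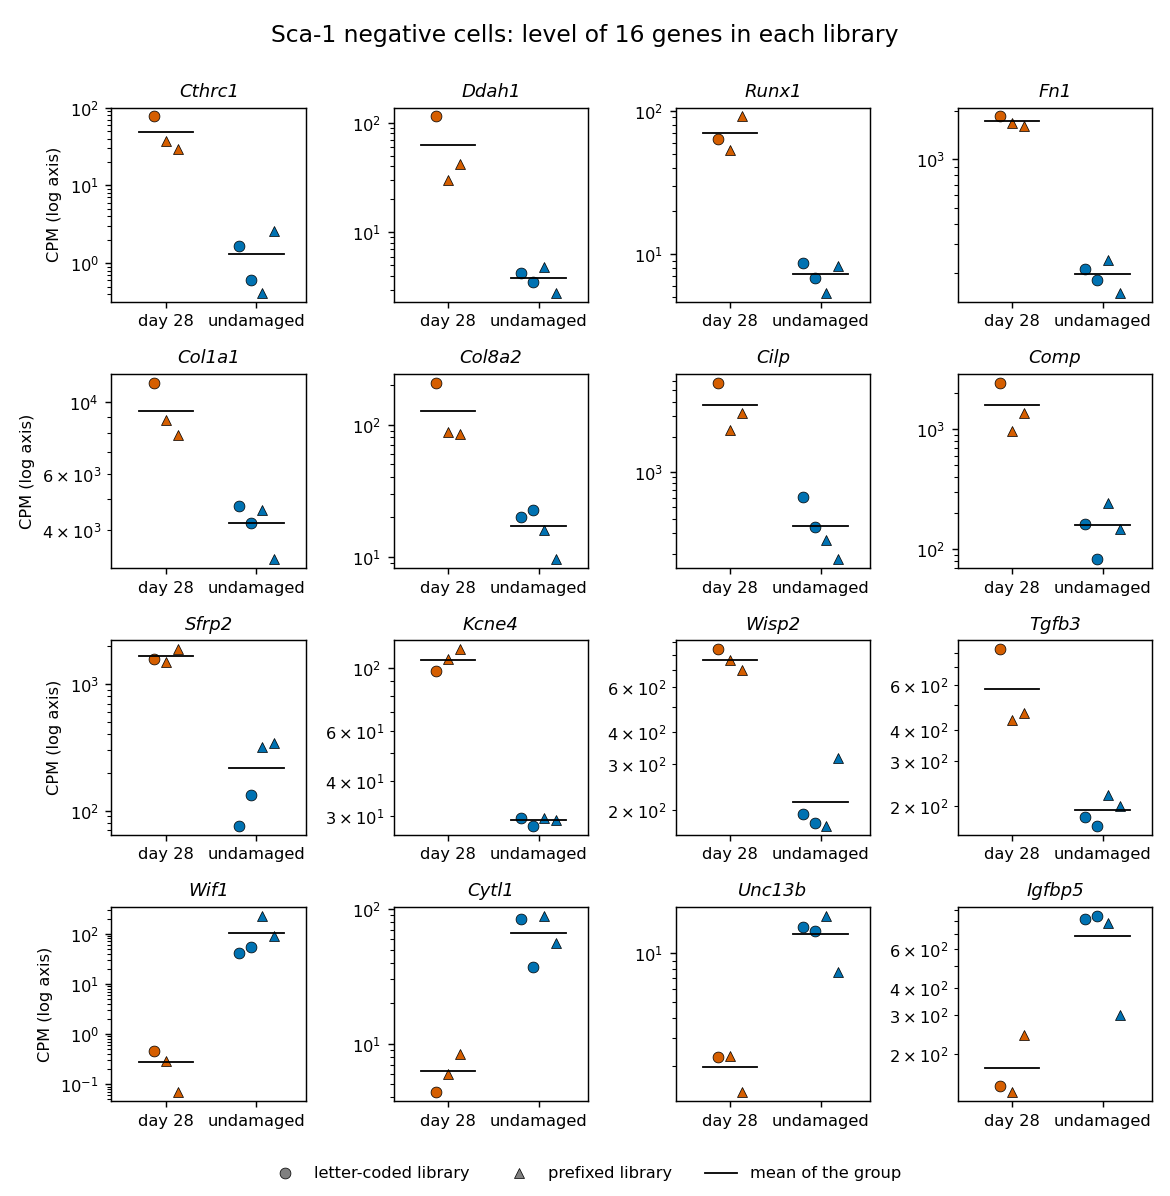
Level of 16 genes in each SCA-1 negative library, in CPM on a log axis, day 28 (orange, 3 libraries) left of undamaged (blue, 4 libraries). Circles are letter-coded libraries, triangles prefixed ones, and bars the group means, and in none of the 16 genes do the groups overlap.

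Of 11 fibrillar collagens, the load-bearing fibres of scar, 6 rose. Col3a1 was at 18420, 11720 and 11520 CPM in day 28 libraries, against 6629, 5115, 6469 and 6337 CPM in undamaged libraries, a log2 change of 1.18 ± 0.22 (adjusted p 0.0106). Col1a2 had a log2 change of 1.22 ± 0.24 (adjusted p 0.016) and Col1a1 of 1.16 ± 0.28 (adjusted p 0.0492), with Col1a1 at 11470, 8807 and 7911 CPM at day 28 and 4762, 4214, 4620 and 3250 CPM in undamaged cells. In each of the 3 genes all day 28 libraries were above all undamaged ones, and E4 was the highest. The summed level of the 11 fibrillar collagens was 45120, 32180 and 30290 CPM at day 28, against 18950, 16090, 17960 and 14780 CPM in undamaged cells. Of these 11 genes, 6 were called higher and 0 lower, with a median log2 change of 1.16. None of the 6 calls held without E4, where the adjusted p was 0.0726 for Col3a1, 0.0819 for Col1a2 and 0.194 for Col1a1, while the directions stayed. The list's median was 0.893 in the prefixed libraries, where 0 of the 11 were called, beside 594 of all 13559 genes tested there. It was 1.36 in the letter-coded ones, where E4 is the 1 day 28 library. Among the 6 genes called over all libraries, Col24a1 had 103 counts over the 3 day 28 libraries and 0 over the 4 undamaged ones. This was at least 51.3-fold higher against a floor of 3 counts over the group. Col2a1, the collagen of cartilage, had 30 and 0 counts, at least 14.9-fold higher, and both lost their call with any library left out.

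Of 27 non-fibrillar collagens tested, 4 were higher (Col8a2, Col6a5, Col12a1 and Col14a1) and 0 lower, with a median log2 change of 0.03 over all 7 libraries, 0.29 in prefixed and 0.18 in letter-coded libraries. Col8a2, a short-chain collagen, was at 206, 87.2 and 84.5 CPM at day 28, against 20.2, 22.8, 16.0 and 9.61 CPM in undamaged cells. The groups did not overlap and the log2 change of 2.88 ± 0.37 (adjusted p 0.000523) was called in every setting. Col6a5, a chain of collagen VI, was at 61.4, 309 and 326 CPM at day 28, against 19.4, 12.4, 1.32 and 4.29 CPM in undamaged cells. Here E4 was the lowest of the day 28 libraries, and the call (log2 change 4.63 ± 1.01, adjusted p 0.0269) was lost in 5 of the 7 fits that left out a library. Col12a1, a fibril-associated collagen, lost its call without F3, B7 or E4, and Col14a1 without B7 or E4. Among 28 genes of collagen modification, cross-linking and assembly, 3 were higher: P4ha3 (a prolyl hydroxylase subunit), Loxl3 (a lysyl oxidase) and Adamts2 (the procollagen N-proteinase), with log2 changes of 3.72, 1.25 and 0.90. All 3 lost the call without E4, and Loxl3 also without F3, A6, B7 or B6. Of 43 matrix proteases and inhibitors, Adamts2 was the 1 called, near the share of 1.06% over all genes.

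Of the cartilage- and tendon-like matrix genes, 9 of 27 tested were higher and 1 was lower. Comp, a pentameric glycoprotein that binds collagen, was at 2444, 966 and 1373 CPM in day 28 libraries, against 163, 82.2, 242 and 148 CPM in undamaged libraries. Cilp, cartilage intermediate layer protein, was at 5807, 2282 and 3186 CPM at day 28, against 608, 343, 263 and 179 CPM in undamaged cells. Neither gene's groups overlapped, and the log2 changes were 3.33 ± 0.54 and 3.43 ± 0.55 (adjusted p 0.00296 for both). Matn3, a cartilage matrilin whose promoter is shown above, was at 10.6, 2.31 and 3.39 CPM at day 28, against 0.138, 0, 0 and 0 CPM in undamaged cells. With 2 undamaged counts in all, its ratio was 147 with a counting interval of 40.2 to 1220. Wisp2, a matricellular CCN protein, was at 841, 763 and 696 CPM at day 28, against 192, 177, 173 and 316 CPM in undamaged cells, a log2 change of 1.84 ± 0.28 (adjusted p 0.00221) without overlap.

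The matrifibrocyte list had 27 tested members, of which 9 were higher (Comp, Cilp, Cilp2, Fmod, Matn3, Wisp2, Angptl7, Sfrp2 and Fgf18) and 1 lower (Wif1), with a median log2 change of 0.87. Its median was 0.68 in prefixed and 1.96 in letter-coded libraries. Some of these calls were lost without E4. Fmod, the collagen-binding proteoglycan fibromodulin, was at 1817, 458 and 492 CPM at day 28, against 84.6, 46.7, 237 and 138 CPM in undamaged cells, and its log2 change of 2.87 became 1.91 without E4 (adjusted p 0.132), and the call was also lost without E5 or F3. Cilp2 and Angptl7 likewise lost their calls without that library, with adjusted p values of 0.0698 and 0.0907. Beside these, 7 of 28 matricellular genes were higher and 0 lower. The matricellular list had a median log2 change of 0.55 over all libraries, 0.74 in prefixed and -0.04 in letter-coded ones. Fn1, fibronectin, was at 1841, 1687 and 1613 CPM at day 28, against 212, 181, 241 and 151 CPM in undamaged cells, and its groups stood far apart, with a log2 change of 3.13 ± 0.49 (adjusted p 0.00291). The other 6 were Tnc, Tnn, Thbs4, Sparc, Wisp1 and Fbln1, of which each lost its call without at least 1 library. Sparc, a collagen chaperone, had a log2 change of 0.98, called with all libraries, and lost its call without E4 (adjusted p 0.146), E5, F3 or B7.

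Among 17 elastic fibre genes tested, 3 rose. Mfap5, a microfibril protein, was at 978, 653 and 769 CPM in day 28 libraries, against 353, 334, 375 and 342 CPM in undamaged ones, a log2 change of 1.19 ± 0.17 (adjusted p 0.00131). Mfap4, another microfibril-associated glycoprotein, was at 2011, 1132 and 1248 CPM at day 28, against 471, 399, 574 and 455 CPM in undamaged cells, a log2 change of 1.62 ± 0.27 (adjusted p 0.00437). Both calls held in every setting, and neither gene's groups overlapped. With Ltbp2 they were the 3 called higher of 17 tested, and 15 of the 17 had a log2 change above 0. Of 13 small leucine-rich proteoglycans, Fmod and Aspn were higher and 0 were lower, and Aspn lost its call without F3, A6, B7, E4 or B6. Cpxm2, an inactive carboxypeptidase homologue whose promoter is shown above, was at 293, 211 and 106 CPM at day 28, against 20.8, 13.9, 44.2 and 12.6 CPM in undamaged cells. Its groups stood apart by a log2 change of 3.16 ± 0.50 (adjusted p 0.00296).

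**Figure D3:**
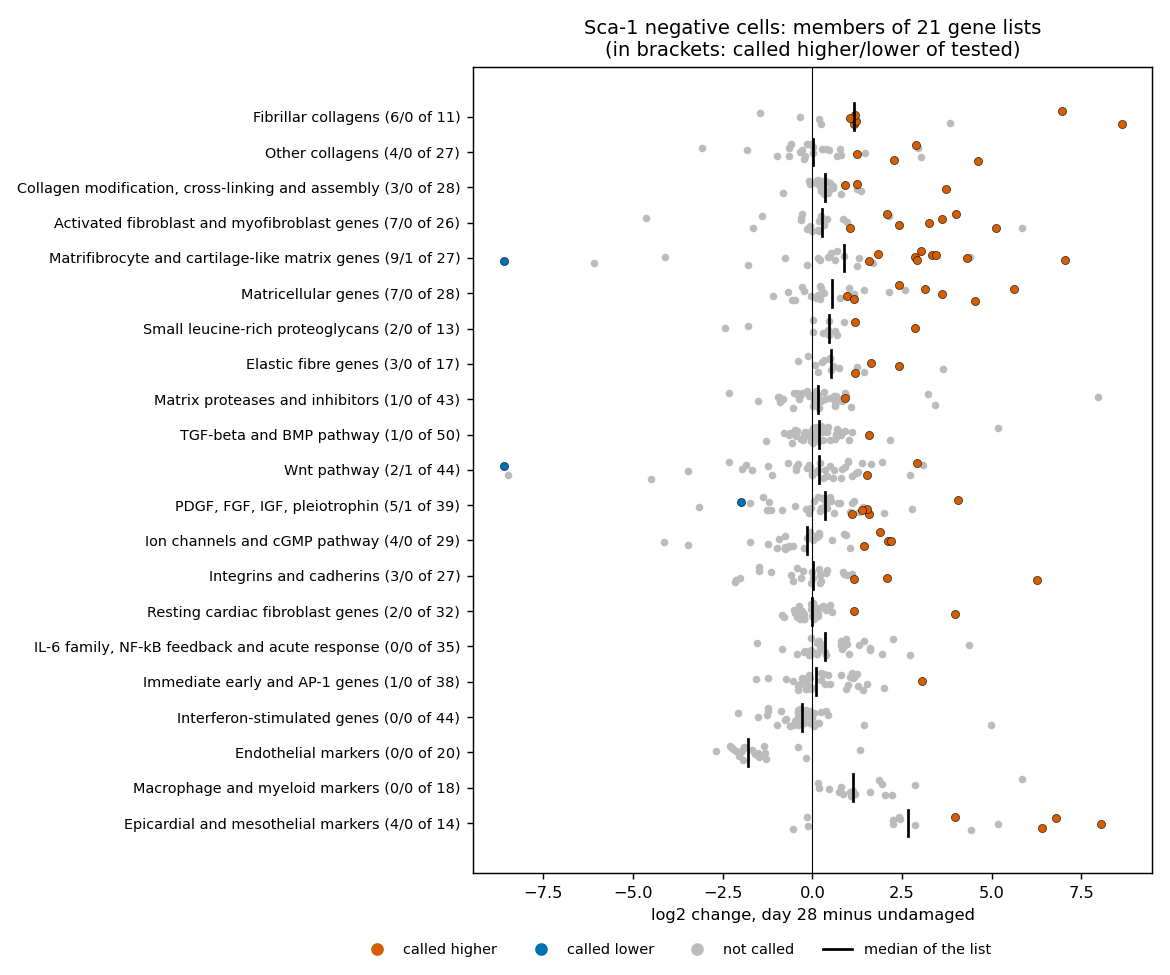
Log2 change of every tested member of 21 gene lists, day 28 minus undamaged SCA-1 negative cells. Each point is a gene (orange called higher, blue called lower, grey not called), the black bar is the list's median, and the label gives the numbers called higher and lower of those tested; fibrillar collagens lie mostly above 0 and endothelial markers mostly below.

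Secreted Wnt inhibitors moved in opposite directions. Wif1, which binds Wnt ligands (chromosome 10, 121033960 to 121100650), was at 0.455, 0.289 and 0.0692 CPM in day 28 libraries, against 41.3, 53.4, 228 and 88.6 CPM in undamaged ones. Over the group this was 10 counts at day 28 and 5682 in undamaged cells, a log2 change of -8.60 ± 0.89 (adjusted p 3.81e-05), and every undamaged library was far above every day 28 one. Sfrp2, a secreted frizzled-related protein, was at 1573, 1503 and 1881 CPM at day 28, against 76.0, 133, 319.8 and 339 CPM in undamaged cells, a log2 change of 2.93 ± 0.48 (adjusted p 0.00318). Sfrp1, its paralog, was at 702, 1056 and 1033 CPM at day 28, against 310.0, 314, 358 and 306 CPM in undamaged cells, a log2 change of 1.53 ± 0.22 (adjusted p 0.00131). Neither frizzled-related gene had overlapping groups. These 3 were the called genes among 44 of the Wnt pathway, whose median log2 change was 0.19. Sost, the bone Wnt inhibitor sclerostin, had 0 counts at day 28 and 139 in undamaged cells, at least 31.0-fold lower against a floor of 3 counts over the group, but was not called (adjusted p 0.0672).

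A few growth factor genes were called. Tgfb3, a TGF-beta ligand, was at 825, 436 and 465 CPM in day 28 libraries, against 181, 168, 222 and 201 CPM in undamaged ones, a log2 change of 1.58 ± 0.25 (adjusted p 0.00296) without overlap. It was the 1 called gene of 50 in the TGF-beta and BMP pathway, where the median log2 change was 0.17. That count is near the share over all genes, 1.06%. Fgf9, a fibroblast growth factor of the epicardium in heart development, was at 11.4, 11.1 and 7.54 CPM at day 28, against 0.553, 0.477, 0 and 1.26 CPM in undamaged cells. Fgf18, a ligand that acts on cartilage, was at 37.2, 22.6 and 22.3 CPM at day 28, against 11.0, 10.1, 10.4 and 5.55 CPM in undamaged cells. The groups of both were apart, with log2 changes of 4.07 ± 0.64 (adjusted p 0.00296) and 1.56 ± 0.26 (adjusted p 0.00423).

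Insulin-like growth factor binding proteins went both ways. Igfbp6 was at 518, 484 and 539.6 CPM in day 28 libraries, against 229, 209, 151 and 129 CPM in undamaged ones, a log2 change of 1.52 ± 0.27 (adjusted p 0.00668). Igfbp5 was at 144, 135 and 244 CPM at day 28, against 818, 845, 782 and 299.6 CPM in undamaged cells. Its groups stood apart with undamaged B7 close to the day 28 range, and the log2 change of -1.98 ± 0.42 (adjusted p 0.0225) lost its call in 5 of the 7 fits that left out a library, with the highest adjusted p, 0.119, without B4. Of 39 PDGF, FGF, IGF and pleiotrophin family genes, 5 were higher (Pdgfrl, Fgf9, Fgf18, Igfbp6 and Mdk) and Igfbp5 was lower.

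A few potassium channel and adhesion genes were called higher. Kcne4, a potassium channel beta subunit (chromosome 1, 78816758 to 78820028), was at 97.8, 108 and 117 CPM in day 28 libraries, against 29.5, 27.7, 29.5 and 29.1 CPM in undamaged ones. Its spread was small in both groups and the log2 change of 1.89 ± 0.19 had the smallest p of the comparison (adjusted p 3.81e-05). Kcnj15, an inward rectifier, was at 69.7, 36.8 and 58.2 CPM at day 28, against 12.0, 12.3, 22.3 and 4.29 CPM in undamaged cells, a log2 change of 2.12 ± 0.38 (adjusted p 0.00813). Kcnma1, the large-conductance channel, and Gucy1a3, a soluble guanylate cyclase subunit, completed the 4 called higher of 29 ion channel and cGMP genes, with median log2 change -0.16, and both lost their call without E4, E5 or F3, and Kcnma1 also without B7. Ephb2, an ephrin receptor kinase, was at 20.8, 14.5 and 16.6 CPM at day 28, against 5.39, 5.45, 6.04 and 4.92 CPM in undamaged cells, a log2 change of 1.66 ± 0.23 (adjusted p 0.00131). Cdh3, P-cadherin, had 174 counts at day 28 and 3 in undamaged cells, a ratio of 86.6 with a counting interval of 29.2 to 424. Cdh3, Cdh2 and Itgbl1 were the 3 called higher of 27 integrins and cadherins. Pamr1, a secreted protease-like protein, and Tmem98, a transmembrane protein, were higher by log2 1.78 ± 0.29 and 1.60 ± 0.19 (adjusted p 0.00296 and 0.000159).

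Fewer genes fell, and no list held more than 1 of them. Cytl1, a secreted cytokine-like protein of cartilage, was at 4.37, 5.99 and 8.44 CPM in day 28 libraries, against 84.6, 37.3, 89.2 and 55.9 CPM in undamaged ones. The groups stood apart and the log2 change of -3.40 ± 0.45 (adjusted p 0.000554) was called in every setting. Unc13b, a vesicle priming protein, was at 2.28, 2.31 and 1.38 CPM at day 28, against 14.5, 13.6, 17.0 and 7.67 CPM in undamaged cells, a log2 change of -2.73 ± 0.40 (adjusted p 0.00187). Grin3a, a glutamate receptor subunit, had 2 counts at day 28 and 187 in undamaged cells, a ratio of 0.016 with a counting interval of 0.00192 to 0.0585. Coch, an extracellular protein named cochlin, had 0 and 465 counts, at least 104-fold lower against a floor of 3 counts over the group, and Corin, the protease that activates atrial natriuretic peptide, 0 and 87 counts, at least 19.4-fold lower. Coch lost its call without E4 or B6, and Corin without E5, E4, B4 or B6. Ahsg, a plasma protein made by the liver, was at 6.01, 11.3 and 7.75 CPM at day 28, against 86.8, 121, 39.0 and 21.7 CPM in undamaged cells, and lost its call without F3, E4 or B6 (adjusted p 0.0183 with all libraries). Among the other lower genes of the rule were Enpp6, a choline phosphodiesterase, Tspan7, a tetraspanin, and Cmpk2, a mitochondrial nucleotide kinase, with log2 changes of -2.11, -1.79 and -1.10. Stk32b, Ptar1, Pde7b, Aldh3a1, Fblim1, Hdac1 and Rnf24 had log2 changes of -2.03 to -0.84. These 10 calls were each lost without at least 3 of the 7 libraries in turn, B6 among them in all 10, and leaving out B6 left 5 calls downwards, of 34.

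Genes of the epicardium and mesothelium, the sheet that covers the heart, had the highest median of the lists described here. Lrrn4, a mesothelial leucine-rich repeat protein whose promoter is shown above, was at 2.37, 3.39 and 12.7 CPM in day 28 libraries, against 0.0692, 0, 0 and 0 CPM in undamaged ones, a ratio of 384 with a counting interval of 68.3 to 15200. Wt1, the epicardial transcription factor, was at 12.0, 8.02 and 32.4 CPM at day 28, against 1.11, 1.57, 0.0827 and 1.54 CPM in undamaged cells, a log2 change of 3.98 ± 0.82 (adjusted p 0.0183). In both genes B6 was the highest library. Of 14 tested, 4 were higher (Lrrn4, Wt1, Bnc1 and Upk1b) and 0 lower, with a median log2 change of 2.66. Without B6, Wt1, Bnc1 and Upk1b lost their calls, with adjusted p values of 0.135, 0.088 and 0.205, and Lrrn4 kept its own. Bnc1 also lost its call without F3 or B7, Wt1 without E5, and Upk1b without any single undamaged library. The summed level of the list was 154, 201 and 320.0 CPM at day 28, against 142 to 189 CPM in undamaged cells. In bulk libraries, the number of cells of a type and the RNA per cell cannot be told apart.

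Markers of other cell types were read as whole lists. With 1.06% of all genes called, lists this short would hold few or no calls in any case. Of 20 endothelial markers, 0 were called and 1 had a log2 change above 0, with a median of -1.80. Pecam1, the gene of the CD31 protein, was at 18.6, 5.49 and 1.80 CPM at day 28, against 56.0, 48.2, 23.4 and 37.3 CPM in undamaged cells, a log2 change of -2.28 ± 0.55 (adjusted p 0.0526). The sum of these markers was 229 to 361 CPM at day 28, against 357 to 729 CPM in undamaged cells. Cd36, a fatty acid receptor also abundant in endothelium, moved with them, at 28.1, 7.00 and 10.3 CPM at day 28, against 98.2, 128, 23.2 and 69.0 CPM in undamaged cells, and was called lower (adjusted p 0.0397), a call lost without E5, F3, B7, B4 or B6. All 18 macrophage markers tested, of 23 listed, had a log2 change above 0 and 0 were called, with a sum of 19.3 to 53.7 CPM at day 28, against 12.5 to 23.9 CPM in undamaged cells. Mural cell markers summed to 933 to 1136 CPM at day 28, against 868 to 1479 CPM in undamaged cells, and 0 of 17 were called. Their median log2 change was -0.69, with 5 of the 17 above 0, and 0.09 in prefixed and -1.1 in letter-coded libraries. Cardiomyocyte markers, 0 of 20 called, summed to 583 to 661 CPM at day 28, against 398 to 694 CPM in undamaged cells. Their median was -1.15, with 3 of the 20 above 0, and -1.98 in prefixed and 0.47 in letter-coded libraries. The part of these cells in the called genes was not tested.

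Among 32 genes of resting cardiac fibroblasts, 2 were higher (Wt1 and Fbln1) and 0 lower, with a median log2 change of -0.02. Gsn, the actin-severing protein gelsolin, averaged 44360 ± 11900 CPM at day 28 and 39490 ± 2084 CPM in undamaged cells (SD, n = 3 and 4). Tbx20, a cardiac transcription factor, was at 366, 370.4 and 399 CPM at day 28, against 610.3, 714, 688 and 593 CPM in undamaged cells, without overlap but not called (log2 change -0.78 ± 0.26, adjusted p 0.176). Called genes numbered 0 of 45 for cell cycle and DNA replication (median log2 change 0.09), 0 of 76 for ribosomal proteins (-0.06), 0 of 74 for nuclear oxidative phosphorylation (0.07), 0 of 44 for the secretory pathway (-0.00101) and 0 of 44 for interferon-stimulated genes (-0.28). A p that misses the threshold does not show that these lists were alike in both groups. Some medians had opposite signs in the name families. In prefixed and letter-coded libraries they were 0.266 and -0.485 for ribosomal proteins and 0.239 and -0.281 for the secretory pathway. For resting fibroblast genes they were 0.268 and -0.382, for cell cycle genes -0.0459 and 0.434, and for interferon-stimulated genes 0.0304 and -0.651. Oxidative phosphorylation had 0.0278 and 0.0458, of one sign.

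Acute response genes differed in direction between the 2 name families, of which the letter-coded one has E4 as its 1 day 28 library. The letter-coded calls thus compare that library, with a spread borrowed from the other groups, and do not test a condition with replicates. Il6, the inflammatory cytokine, was at 63.4, 704 and 1109 CPM in day 28 libraries E4, B4 and B6, against 318, 386, 15.6 and 95.7 CPM in undamaged libraries E5, F3, A6 and B7. Ptx3, a pentraxin of the acute phase, was at 19.6, 604 and 954 CPM at day 28, against 109, 142, 23.4 and 42.9 CPM in undamaged cells. In both genes the prefixed day 28 libraries were highest, the letter-coded undamaged ones next, and the remaining 3 low, so the groups overlapped. Within the prefixed family the log2 changes were 4.02 and 4.55 (adjusted p 0.0186 and 0.000904), and within the letter-coded family they were -2.46 and -2.67 (adjusted p 0.0075 and 0.00169). Of 35 genes of the IL-6, NF-kB and acute response list, 0 were called over all 7 libraries. In the prefixed family 14 were higher and 0 lower, beside 473 higher and 121 lower of all 13559 genes tested there. The list's median log2 change was 1.58 in prefixed and -1.11 in letter-coded libraries. The immediate early and AP-1 list had a median log2 change of 0.752 in prefixed and -0.851 in letter-coded libraries. Of its 38 genes, 15 were higher and 0 lower in prefixed libraries, and 1 was called over all libraries. That gene, Nr4a2, an immediate early nuclear receptor, was at 27.8, 274 and 262 CPM at day 28, against 18.0, 20.6, 33.2 and 19.7 CPM in undamaged cells, with E4 inside the undamaged range, and lost its call without any single library other than E4.

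The genes called over all libraries had one direction in both families. Over all 13089 genes with a value in both families, 48.0% had the same sign of change in each family, while 145 of the 145 called genes measured in both did. Since the calls used both families, that count describes them and is no further test. Within the families, 54 genes were called in both in the same direction and 63 in opposite directions, 61 of those higher in prefixed and lower in letter-coded libraries, again with E4 alone on the day 28 side. A test of the difference in change between families, chosen after the data were seen, called 437 genes higher in prefixed (3.16%) and 123 lower (0.891%).

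**Figure D4:**
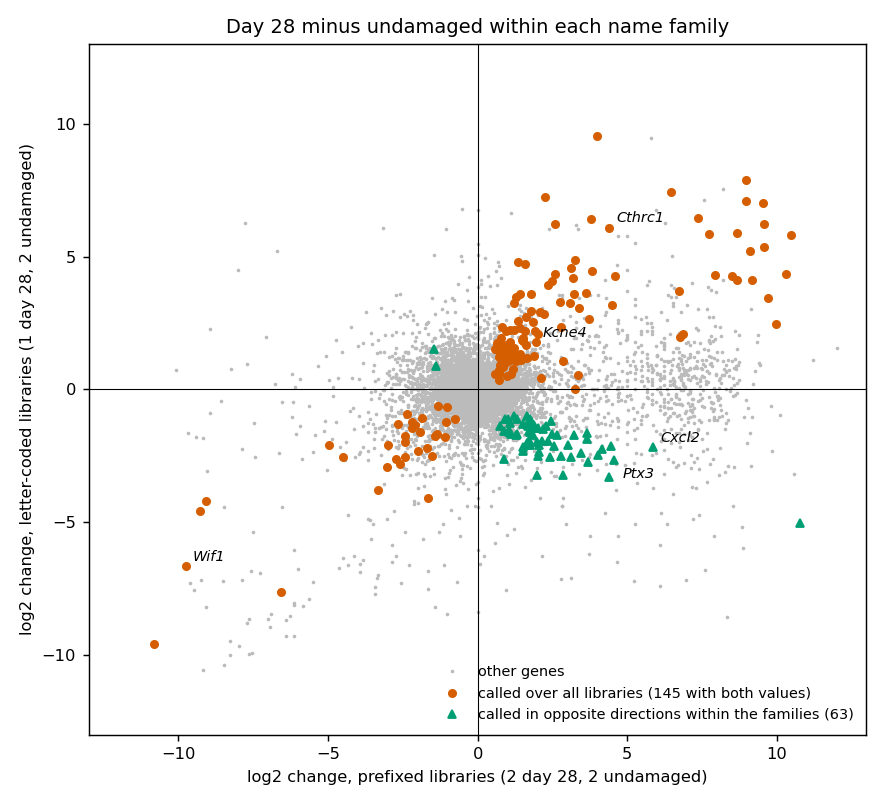
Log2 change, day 28 minus undamaged, within the prefixed libraries (horizontal axis) and within the letter-coded libraries (vertical axis). Orange points are called genes with a value in both families, all of one sign in both, green triangles the 63 genes called in opposite directions, and grey points other genes; 1 gene lies outside the plotted range.

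The same contrast in the SCA-1 positive gate used 9 other libraries, although the codes F3, A6, B7, B4 and B6 occur in both gates. There 175 genes were called (1.27%): 142 were higher (1.03%) and 33 lower (0.239%). Of the 113 genes higher in the negative gate, 61 were also higher in the positive gate, which is 54.0% of the negative and 43.0% of the positive list. Of the 34 lower genes, 9 were shared, 26.5% of the negative and 27.3% of the positive list. The sign was the same in both gates for 112 of 113 higher and 33 of 34 lower genes, against 60.7% of all genes tested, and 0 genes were called in opposite directions. Positive library E2 had 55.8% of its reads outside genes, and without it the positive gate had 112 higher and 13 lower genes, with 54 and 7 shared.

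Gate by gate, the shared genes included Cthrc1, Wif1, Kcne4, Comp, Sfrp2 and Cytl1. Their log2 changes in the negative gate were 5.13, -8.60, 1.89, 3.33, 2.93 and -3.40, and those in the positive gate 4.61, -7.03, 1.29, 2.93, 2.81 and -2.80. Mfap5, Mfap4 and Pamr1 were called in the negative gate alone, with log2 changes of 1.19, 1.62 and 1.78 there and 0.32, 0.45 and 0.41 in the positive gate. A test of the difference between gates with edgeR called 0 of 13812 genes, with 719 at an unadjusted p under 0.05 and a smallest adjusted p of 0.907, so no gene can be called particular to either gate. DESeq2 called 4 genes in that test (B3gat2, Eno1b, Alb and Snx22), and limma-voom 0. Their DESeq2 log2 differences were -24.43, 6.99, -27.45 and -7.18. Those of B3gat2 and Alb are far larger than any change given above, and the counts behind them are not given here.

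The day 28 levels were set beside those of days 7 and 14. At day 7, 1 library is labelled negative and was described without a test, and day 14 has 2 libraries, D1 and D9. Both day 14 libraries are prefixed and the day 7 library is in neither name family, while day 28 and undamaged hold both families. Time and name family are thus mixed in these levels. Cthrc1 was at 726 CPM at day 7 and at 225 and 237 CPM at day 14, and averaged 48.1 ± 25.5 CPM at day 28, against 1.31 ± 1.00 CPM in undamaged cells (SD, n = 3 and 4). Fn1 was at 17280 CPM at day 7, 10400 and 2572 CPM at day 14 and 1714 ± 117 CPM at day 28, against 196 ± 39.0 CPM in undamaged cells. Both were thus highest in the day 7 library. Col1a1 followed the same order, at 34160 CPM at day 7, 25300 and 12190 CPM at day 14 and 9395 ± 1849 CPM at day 28, against 4211 ± 682 CPM in undamaged cells. None of these genes was called at day 28 against day 14 in the main fit. The edgeR adjusted p there was 0.076 for Cthrc1, 0.149 for Fn1 and 0.221 for Col1a1. Of the alternative settings, 6 called Cthrc1 lower than at day 14 and 0 called Fn1. Of the 113 higher genes, 60 had a day 7 level above all 3 day 28 libraries (53.1%, against 31.9% of all genes tested) and 23 a level below them (20.4%, against 31.0%).

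Other genes had their highest mean level at day 28. Kcne4 was at 73.6 CPM at day 7, 44.4 and 60.4 CPM at day 14 and 107 ± 9.48 CPM at day 28, against 29.0 ± 0.847 CPM in undamaged cells (SD, n = 3 and 4). Wisp2 was at 536 CPM at day 7, 281 and 246 CPM at day 14 and 766 ± 72.5 CPM at day 28, against 215 ± 68.2 CPM in undamaged cells. Neither Kcne4 nor Wisp2 was called at day 28 against day 14 in the main fit (edgeR adjusted p 0.0734 for both). Of the alternative settings, 5 called Kcne4 and 4 called Wisp2 higher than at day 14. Both day 14 libraries were above all day 28 libraries in 26 of the 113 higher genes (23.0%, against 19.0% of all genes tested) and below them in 22 (19.5%, against 16.3%), shares near those of all genes. Wif1 had 0 counts at day 7, was at 5.23 and 15.1 CPM at day 14 and 0.271 ± 0.194 CPM at day 28, against 103 ± 85.6 CPM in undamaged cells, and was above its day 28 level in both day 14 libraries.

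**Figure D5:**
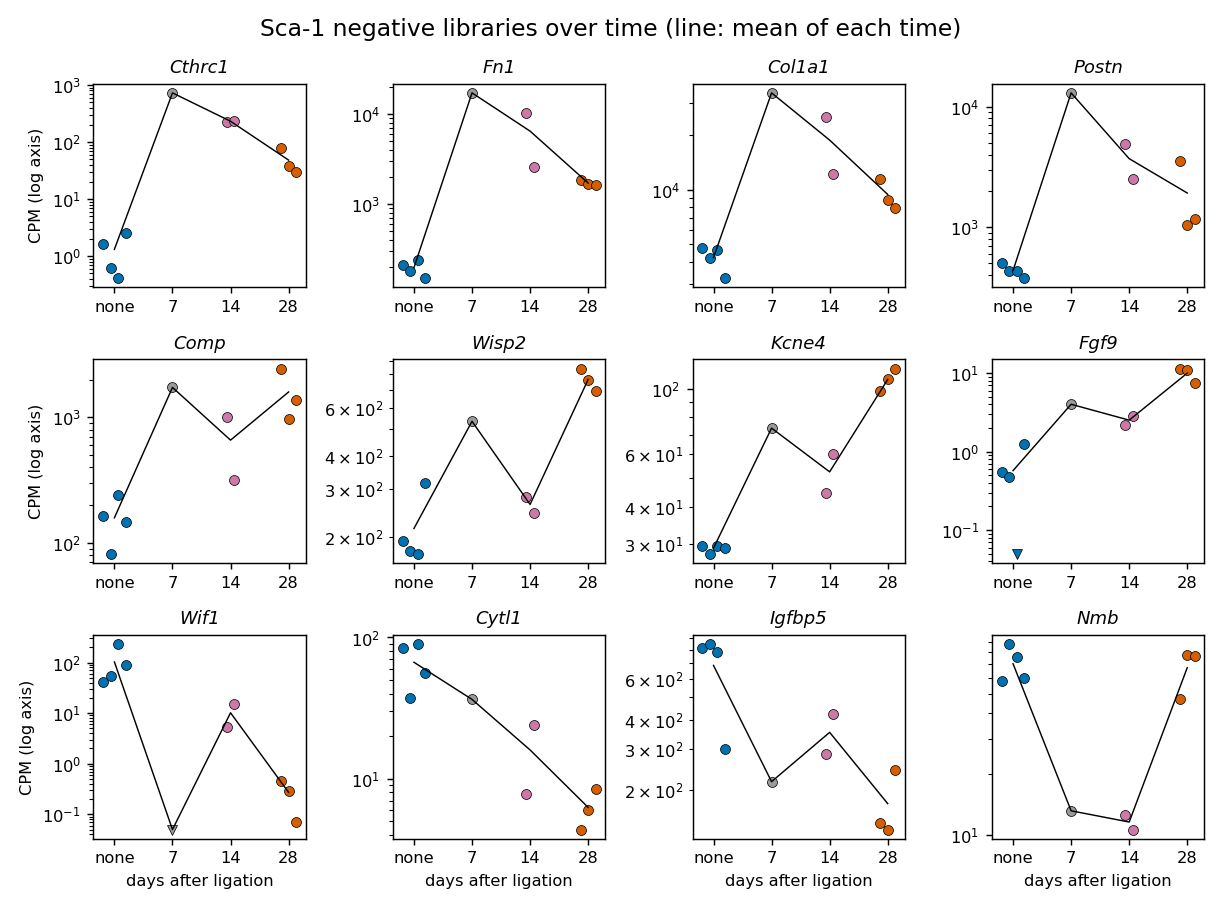
Level of 12 genes in the SCA-1 negative libraries of undamaged hearts (none) and 7, 14 and 28 days after ligation, in CPM on a log axis. Each point is a library and lines join the mean of each time. Downward triangles mark libraries with 0 counts, drawn at the foot of the axis. By these means, Cthrc1, Fn1 and Col1a1 are highest at day 7, and Wisp2, Kcne4 and Fgf9 at day 28.

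Against day 14, 25 genes changed at day 28 (0.181%: 11 higher, 0.0796%, and 14 lower, 0.101%), with 1549 at an unadjusted p under 0.05. Both day 14 libraries are prefixed while day 28 library E4 is letter-coded, so time and name family are partly mixed here. With name family as a term 81 genes were called, and 325 in prefixed libraries alone. This comparison shares the day 28 libraries with the one above, so the values are given side by side. Lhfpl2, a tetraspan membrane protein, averaged 62.5 ± 5.68 CPM at day 28 and was at 178 and 142 CPM at day 14, with 57.0 ± 6.22 CPM in undamaged cells (SD, n = 3 and 4). Sox4, a transcription factor, averaged 21.1 ± 1.69 CPM at day 28 and was at 83.2 and 63.7 CPM at day 14, with 19.9 ± 3.86 CPM in undamaged cells. Nmb, the peptide neuromedin B, averaged 67.2 ± 17.5 CPM at day 28 and was at 12.5 and 10.6 CPM at day 14, with 70.3 ± 14.2 CPM in undamaged cells. Day 28 levels of these 3 genes overlapped the undamaged ones. The log2 changes against day 14 were -1.35, -1.80 and 2.54 (adjusted p 0.00527, 0.00823 and 0.00823). Of the 25 genes, 3 were also called against undamaged cells (Wif1 and Sned1 lower, Slc1a5 higher). Leaving out D1, B4 or B6 left 2, 5 and 3 calls, and leaving out D9 or E4 left 16 and 42.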

How the data were processed

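RNA of sorted cardiac stromal cells was sequenced with a stranded mRNA kit, per the labels' protocols. The authors deposited raw read counts per gene for each library, in 24421 genes and 2 entries that name no gene, which were left out of library sizes and tests. In the 7 libraries the entry for reads outside genes held 6.77% to 13.5% and that for reads shared by genes 0.366% to 0.646%. The submitters' processing notes name bcl2fastq, TopHat, Bowtie2, STAR, Cufflinks and the build mm10, and the counting tool, its strand setting and the annotation are not given in the sources used here, so reads of overlapping or antisense genes may not be told apart.

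From the counts, edgeR 4.0.16 in R 4.3.3 was run with filterByExpr (minimum count 10), TMM factors and the quasi-likelihood F-test over 20 libraries in 6 groups with 14 residual degrees of freedom, and 13812 genes were tested with Benjamini-Hochberg adjustment at 0.05. This fit took negative and positive libraries that share a code as independent. A standard error is the log2 change divided by the root of F. CPM used TMM library sizes and are not scaled to gene length, so levels are not compared between genes. A count of 3 stood for 0.192 to 0.279 CPM in these libraries, and intervals and floors cover counting error only. Gene positions came from GENCODE M21, which held 13322 of the genes tested by symbol (96.5%). The fits were checked on simulated counts.

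Named genes were a set of anchors, the up to 15 called genes of largest change in each direction with a mean log2 CPM of at least 3 and no overlap of groups, and the up to 4 members of smallest p of each gene list. The members and lists were chosen with earlier results of these data known. Alternatives were other size factors (RLE, upper quartile), other filters, DESeq2 1.42.0, limma-voom 3.58.1, name family as a term or alone, each library left out, the 7 libraries alone, and the library code as a replicate block. Codes pair negative with positive libraries, since the same code is found in both gates, and deviations of same-code pairs from their group means correlated at 0.184 to 0.412 in all 7 pairs. Both day 14 pairs give 0.412 by construction, since each group has 2 libraries, pairs of other codes within a name family reached 0.389, and the labels do not say what a code marks. No code is shared between day 28 and undamaged libraries.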

Additional observations from a re-analysis of the deposited data

Results flagged for a closer look

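Dixon's test at its 95% critical value, which by chance marks about 1 in 20 groups, marked 1 of the 4 undamaged libraries in 12 of 84 genes checked. In 5 of the 12 the other 3 libraries had 0 counts, where the test marks any count by construction, which leaves 7. Undamaged A6 was high for Sfrp1 (358 CPM, against 306 to 314), Pamr1 (67.9 CPM, against 39.8 to 44.5) and Kcnma1 (12.1 CPM, against 3.60 to 4.16), and low for Hdac1 (45.2 CPM, against 62.4 to 65.8). Undamaged B7 was high for Wisp2 (316 CPM, against 173 to 192) and low for Fgf18 (5.55 CPM, against 10.1 to 11.0) and Igfbp5 (299.6 CPM, against 782 to 845). In the 5 genes with 0 counts elsewhere, a few counts in 1 library stood against 0 in the other 3: Lrrn4 and Bnc1 at 0.0692 CPM and Matn3 and Upk1b at 0.138 CPM in E5, and Cdh3 at 0.204 CPM in F3.

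The day 28 change differed between the name families in 9 of these genes, by edgeR's test of the difference over all genes (adjusted p under 0.05). On the log2 scale, prefixed minus letter-coded, the difference was 7.23 for Ptx3, 6.49 for Il6, 3.01 for Ly6a, 2.82 for Nr4a2 and 2.44 for Ahsg. It was -4.99 for Cilp2, -3.45 for Fmod, -3.11 for Angptl7 and -1.51 for Gucy1a3. Pdgfrl, named above but not among the 84 genes checked, had a difference of -1.08 and is not in this count. In the letter-coded family E4 was the only day 28 library.

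The single day 7 negative library entered no test. Its level was above every undamaged library for 105 of the 113 genes called higher at day 28, against 24.1% of all genes. It was below every undamaged library for 27 of the 34 called lower, against 19.4% of all genes. The genes were called against these same undamaged libraries, which raises both counts, so the excess over all genes is no test of day 7.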

How the results depend on the processing

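All 147 called genes kept their sign in every setting that tested them, while their number moved. Given as all, higher and lower, the calls of day 28 against undamaged were 147, 113 and 34. They were 50, 40 and 10 with only the 7 libraries compared, 594, 473 and 121 in prefixed libraries, 591, 251 and 340 in letter-coded libraries, 436, 232 and 204 with DESeq2, and 82, 70 and 12 with limma-voom. Without undamaged A6 and B7, chosen after seeing the data, they were 60, 40 and 20. Calls downwards numbered 52 with no filter on low counts and 54 with name family as a term. Leaving out each library gave 62 (without E4) to 126 (without A6) calls, 47 (without E4) to 88 higher and 5 (without B6) to 40 (without A6) lower. With the code as a random replicate block in limma-voom there were 116 calls, 20 of them lower. Of the 147 calls, 88 held with that block, 71 with limma-voom without it and 45 with only the 7 libraries compared. With the code as a fixed block the test between gates called 0. In that test DESeq2 called 4 genes. For day 28 against day 14 the 25 calls became 67 with no filter, 81 with name family as a term, 325 in prefixed libraries, 270 with DESeq2, 68 with limma-voom, 86 with the replicate block and 2 (without D1) to 42 (without E4) with a library left out. The causes were not tested.

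Some changes that were not called took the other sign. Ly6a was at log2 0.14 with name family as a term, 1.27 in prefixed libraries and -0.63 (without B6) to 0.070 (without F3) with a library left out. Pdgfra was at 0.020 with name family as a term, 0.23 in prefixed libraries, 0.045 with the replicate block and -0.16 (without B7) to 0.066 (without E5) with a library left out, with 0.042 without E4. Acta2 was at -0.22 in prefixed libraries and -0.20 (without E4) to 0.37 (without A6) with a library left out, Notch3 at 0.16 and Hsp90aa1 at 0.22 in prefixed libraries. In letter-coded libraries Gsn was at -0.38, Il6 at -2.46, Ptx3 at -2.67, Cxcl2 at -2.18, Tnfaip3 at -2.51, Hk2 at -2.73 and Fosl1 at -5.02. The 3 and 4 libraries of the groups and their depth limit what low genes can show.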
